A study of Coffea arabica with 8 samples.

Results

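The probes described here were those with a centred log2 ratio above 0 on all 8 microarrays of a comparison between shoot tips of Tall Mokka and Typica, 2 cultivars of Arabica coffee. They were selected on the measured values: each array was centred on the median of its measured probes, probes with a value on every array were kept, and 201 of 10312 such probes (1.95%) were above 0 throughout. The table listed 15264 probes, of which 4952 lacked a value on at least 1 array and could not be members. The values that chose the members are given as a description, and no test of them supports the choice.

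The RNA came from 6 Tall Mokka trees, pooled as MA and MB (3 trees each), and 8 Typica trees, pooled as KA and KB (4 trees each). The trees had been clonally propagated and grew in the field at one station, so trees of a cultivar may be genetically alike, and the labels do not say how many clones the pools hold. Each array set a Tall Mokka pool against a Typica pool in 2 dyes, Alexa Fluor 555 and 647. MA × KB and MB × KB were hybridised once in each dye arrangement and MA × KA once more in each, as a technical repeat. The arrays with Typica in the 555 dye are called Typica-555 arrays below, and those with Tall Mokka in it Mokka-555 arrays. The design text also lists an MB × KA pairing, which no array description carries, and the descriptions of the arrays were followed.

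A log2 ratio above 0 stands for more signal in Tall Mokka in the likely reading of the files. No source used here states the direction. On the 4 Typica-555 arrays, 2 raised to the value was a multiple of 0.001 for 100% of values under 2-fold, while on the 4 Mokka-555 arrays its inverse was, again for 100%. The signs of 4 arrays had therefore been turned after rounding, and all deposited columns run the same way provided that one order of the channels was used for rounding throughout. Naming that way Tall Mokka over Typica rests on the order of the cultivars in the title and on the custom of dividing the longer wavelength dye by the shorter. If the signs of the 4 Mokka-555 arrays were turned, the members would be above 0 on 4 arrays and below 0 on 4, and 156 other probes would be above 0 on all 8, 0 of them members.

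The shoot tip holds the apical meristem, a small group of dividing cells from which stem, leaves and axillary buds arise, together with young leaves that have not opened. Typica is one of the old, tall cultivars from which much planted Arabica descends, and Mokka coffees are known for small, round beans. On a competitive 2-colour array both RNAs bind to the same spot, so a ratio compares the cultivars within a probe and gives no level that could be set against another probe. None of the member identifiers was found in a RefSeq gene table of coffee with 80883 genes (0 of 201, and 0 of 15264 for all probes). The probes therefore stay unnamed, no gene list or tissue marker could be read from them, and the labelled tissue could not be checked against markers.

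Across the members the cultivar log2 ratio, the mean of the MA × KA and MB × KB pair means with both dye arrangements weighted equally, ranged from 0.07 to 1.30. Its median was 0.47 (quartiles 0.35 and 0.65), a fold of 1.39. Over all 10312 probes the median was -0.01 (quartiles -0.23 and 0.21). Most members were thus modestly above 0: 25 were under 1.2-fold, 72 (35.8%) reached 1.5-fold, and 13 (6.47%) reached 2-fold, beside 116 of 10312 (1.12%) among all probes. The rule used these ratios, so nothing is read from that difference in share. The 13 members were 11.2% of the 116 probes at 2-fold, so most probes with a large mean ratio were at or below 0 on at least 1 array. No member reached 4-fold.

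The members were also steady from array to array, as a rule on the sign favours. Their SD over the 8 arrays had a median of 0.27 (0.08 to 1.29), beside 0.45 over all probes. A ratio of 2-fold on at least 1 array was found for 93 members (46.3%), beside 3058 of all probes (29.7%). It was found on at least 4 arrays for 12 members, on 7 arrays for 1 member and on all 8 for 0. Only 5 probes of the 10312 were at least 2-fold in all 3 pair means, and these 5, STMIT78, STMIC93, STMJA05, STMJK18 and STMCC77, were members.

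On the Typica-555 arrays the members' median was 0.33 for MA × KB, 0.35 for MA × KA, 0.33 for its repeat and 0.52 for MB × KB. On the Mokka-555 arrays the medians in the same order were 0.29, 0.40, 0.35 and 0.56. The quartiles of the members lay between 0.14 and 0.98, and the highest member value of an array between 1.73 and 3.95. The MB × KB arrays gave the highest member medians in both dye arrangements. They also had the widest spread over all probes: the median size of a value was 0.35 and 0.54 there, beside 0.19 to 0.29 on the other 6 arrays. The deposited values had an SD of 1.83 on the MB × KB Mokka-555 array and 0.68 to 0.98 on the other 7.

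How close the members lay to 0 differed widely. The lowest of a member's 8 values had a median of 0.08 and reached 0.87 at most. It was above 0.1 for 81 members, above 0.26 for 27 and above 0.5 for 5, while for 72 it was at most 0.05. Just inside the rule were STMDW76, with a lowest value of 0.0014, and STMEI75 and STMEK93, each with 0.003. Just outside were STMGM76 and STMIL15, whose value on 1 array equalled the median of that array and so was exactly 0, and STMDE03 with -0.001. In all, 551 probes were above 0 on 7 arrays, and for 88 of them (16.0%) the eighth value was above -0.05.

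The members most clear of 0 were taken as the 10 with the highest lowest value. For each, the 8 centred log2 ratios are given first for the Typica-555 and then for the Mokka-555 arrays, each time in the order MA × KB, MA × KA, MA × KA repeat and MB × KB. STMIT78 stood at 1.47, 1.08, 0.87 and 1.70, and then at 1.23, 1.10, 1.13 and 1.00. It was the member that passed 2-fold on 7 arrays, missing it on 1 of the MA × KA arrays. STMIC93 stood at 0.99, 1.16, 0.88 and 1.66, and then at 1.08, 0.84, 1.36 and 0.76. STMHZ27 stood at 0.67, 0.90, 0.84 and 1.27, and then at 0.77, 0.76, 0.94 and 2.22. STMHZ27 had the highest cultivar log2 ratio of all members (1.30 ± 0.43, limma SE; 2.47-fold), and it owed that rank to the MB × KB arrays, since no other array reached 1.

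STMCC64 stood at 1.18, 1.07, 0.57 and 1.52, and then at 1.41, 0.90, 1.06 and 1.09. STMCC88 stood at 1.27, 1.00, 0.53 and 1.60, and then at 1.37, 0.69, 1.02 and 1.13. These probes of one identifier prefix followed each other closely, high on MA × KB in both dye arrangements and lowest on the Typica-555 repeat of MA × KA. STMGF28 stood at 0.60, 1.19, 0.90 and 1.27, and then at 0.49, 0.77, 1.36 and 0.50. STMCL35 stood at 0.71, 1.00, 0.45 and 1.09, and then at 0.96, 0.67, 0.93 and 1.64. STMGF28 was low on MA × KB in both arrangements, whereas STMCL35 was highest on the MB × KB arrays.

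STMCE11 stood at 1.11, 0.69, 0.44 and 0.89, and then at 0.68, 0.57, 0.51 and 1.09. STMCE09 stood at 0.82, 0.69, 0.43 and 0.84, and then at 0.49, 0.48, 0.46 and 0.64. STMCE09 never reached 2-fold and is among the 10 because its values were so even. STMJA05 stood at 0.55, 1.93, 1.73 and 1.73, and then at 1.55, 0.42, 0.46 and 0.51. For STMJA05 the 4 high arrays were the MA × KA and MB × KB arrays of one dye arrangement and the MA × KB array of the other, so that every dye-swapped pair disagreed by about 2-fold or more.

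The other named members with a high cultivar log2 ratio were uneven over the arrays. STMEW11 (1.21 ± 0.56, limma SE) stood at 0.17 and 0.15 on the MA × KB arrays and at 0.94 to 1.60 on the other 6. STMJK18 (1.07 ± 0.42) stood at 1.74, 0.85, 0.96 and 1.84, and then at 1.84, 1.08, 1.30 and 0.35. STMCC77 (1.03 ± 0.26) stood at 1.40, 1.27, 0.83 and 1.81, and then at 1.22, 1.06, 1.01 and 0.22. STMJK18 and STMCC77 thus shared their lowest value on the MB × KB Mokka-555 array, the one of widest spread, and both were at their highest on the dye-swapped array of the same pools. STMCL15 (1.02 ± 0.58) was at 3.95 on one MA × KA array and at 0.11 to 1.39 on the other 7. STMEK93 (0.71 ± 0.36) was at 3.52 on that same array and at 0.003 to 0.86 elsewhere.

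A limma test was made over 12093 probes, those measured at least once per dye arrangement in every pool pair, each pool counting as 1 replicate. It called 0 probes at an adjusted p of 0.05 (0%), and the smallest adjusted p was 0.988. None of the 201 members was called, and 19 (9.45%) had an unadjusted p under 0.05, all with a positive ratio. Over all probes 44 (0.364%) had an unadjusted p under 0.05 and a positive ratio. The members' share cannot be read against that background, because the rule and the test used the same ratios. The limma SE had a median of 0.26 among the members and 0.30 over all 10312 probes. With 2 pools per cultivar the fit had 2 residual degrees of freedom. Its p-values measure the spread between the pool-pair means, in which pools and hybridisations are not separated. In either direction 67 of 12093 probes (0.554%) had an unadjusted p under 0.05, a smaller share than the 0.05 expected where no probe differs. The test was thus cautious, and its 0 calls do not show that the cultivars were alike. The fit assumed a covariance made of shared pools alone, and the part of that assumption in the low share was not tested. With the arrays as replicates, although they share pools, limma gave 1255 of 12093 probes (10.4%) an unadjusted p under 0.05.

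How many probes met the rule on 7 of the arrays shows which array removed most. Leaving out each array in turn, 240 to 316 probes were above 0 on the other 7, and the 201 members are 63.6% to 83.8% of them. These shares restate the member count over the same values and support nothing further. The MA × KB Typica-555 array removed most, 115 of 316, and the Typica-555 repeat of MA × KA fewest, 39 of 240. The MB × KB Mokka-555 array removed 82 of 283, and 22 of the 82 were below -1 there, with a lowest value of -6.18.

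The arrangements were also taken apart. Above 0 on all 4 Typica-555 arrays were 1158 probes (11.2%), and the 201 members were 17.4% of them. Above 0 on all 4 Mokka-555 arrays were 1228 probes (11.9%), and the members were 16.4% of those. Of the 1158 probes 156 (13.5%) were below 0 on all 4 arrays of the other arrangement, and of the 1228 probes 116 (9.45%) were.

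The difference between dye arrangements, the mean of the Typica-555 arrays minus that of the Mokka-555 arrays, is not the contrast of the rule, but a rule that keeps every value above 0 bounds it. For the members it ranged from -1.18 to 0.75 with a median of -0.04. It was positive for 89 members (44.3%), beside 5329 of all probes (51.7%), and 1 log2 unit or more either way for 1 member (0.498%), beside 1110 (10.8%). A limma test of this difference within dye-swapped pairs called 0 of 10312 probes (0%), with a smallest adjusted p of 0.249. Over all probes 1041 (10.1%) had an unadjusted p under 0.05. Of the members 0 were called, 2 (0.995%) had an unadjusted p under 0.05, and the smallest adjusted p of a member was 0.487, shared by several members.

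The members with the largest dye difference each way are given next. STMEK93 (-1.18) and STMCL15 (-0.985) both had their highest value on 1 array, the MA × KA Mokka-555 array on which they stood above 3. For STMEK93 each Mokka-555 array was also above its dye-swapped partner, by less on the other 3 pairs (0.41 beside 0.04, 0.22 beside 0.08 and 0.86 beside 0.003). STMJA05 (0.75) had the opposite sign, and its MA × KB arrays ran against its other 6. STMCE07 (0.58) stood at 1.29, 0.76, 0.51 and 1.29, and then at 0.59, 0.44, 0.31 and 0.19. For STMCE07 each Typica-555 array was above its dye-swapped partner.

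Between the pool pairs the members were highest in MB × KB. The median pair mean was 0.38 in MA × KA and 0.34 in MA × KB, and it reached 0.56 in MB × KB. MB × KB was the highest of the 3 pair means in 121 members (60.2%), beside 3534 of all probes (34.3%), MA × KA in 42 and MA × KB in 38. The difference MB × KB minus MA × KB, which share the Typica pool KB, had a median of 0.16 (-0.695 to 1.24) and was above 0 in 148 members (73.6%), beside 4996 of all probes (48.4%). MA × KA minus MA × KB, which share the Tall Mokka pool MA, had a median of 0.03 and was above 0 in 111 members (55.2%), beside 5455 (52.9%). With 1 pool on each side neither difference can be tested, and the wide spread of the MB × KB arrays moves with the first of them. Its part in that difference was not tested. Between MA × KA and MB × KB, which share no pool, 143 of the 201 members (71.1%) were higher in MB × KB, beside 4767 of all probes (46.2%). The members are bound to be above 0 and MB × KB spreads most, so this share is a description too.

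STMHF58 and STMEW11 had the largest difference MB × KB minus MA × KB. STMHF58 stood at 0.24, 0.32, 0.04 and 1.00, and then at 0.24, 0.91, 0.11 and 1.97, so that MB × KB exceeded MA × KB by 1.24. Its MB × KB arrays were the 2 highest of the 8. STMEW11, given above, differed by 1.06, but its MA × KA mean (1.19) was near its MB × KB mean (1.22). Its MA × KB mean (0.16) stood apart, so pool MA was not low in both of its pairs. At the other end STMJK18 differed by -0.695 and STMCL27 by -0.68. For STMJK18 too the MA × KB mean (1.79) stood apart from those of MA × KA (1.05) and MB × KB (1.09). STMCL27 stood at 0.82, 0.19, 0.55 and 0.15, and then at 0.79, 0.21, 0.12 and 0.10, and it was high on both MA × KB arrays.

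Repeated hybridisations of the same pools differed less for members than for probes in general, which a rule holding every value above 0 favours. The SD per array from the MA × KA repeats was 0.20 for members and 0.52 for all probes on the Typica-555 arrays, and 0.37 and 0.51 on the Mokka-555 arrays. Across the members the rank correlation between arrays, over 201 probes that share the selection and the spot layout, averaged 0.38 for the 2 pairs of arrays with the same pools and dye arrangement. It averaged 0.37 for the 6 pairs with the same pools and opposite dyes, from 0.098 for MB × KB to 0.648 for MA × KB. It averaged 0.28 for the 10 pairs with other pools and the same dye arrangement, and 0.19 for the 10 with other pools and opposite dyes. Over all 10312 probes the 4 means, in this order, were 0.30, 0.07, 0.16 and -0.04. The members were chosen on these same values, so their correlations are a description only.

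The identifiers of the members were unevenly spread. An identifier joins a 5-letter prefix to a number from 1 to 96, with 159 prefixes in all. This layout was looked at after the values were seen and is described without a test. Of the 159 prefixes 67 held no member, 48 held 1, 27 held 2 and 15 held 3 to 8. The prefix STMCE held 27 members among its 92 probes with 8 values (29.3%), and STMCC 14 of 86 (16.3%). STMHV followed with 8 of 73 (11.0%), STMEK with 6 of 73 (8.22%) and STMGF with 5 of 81 (6.17%). STMCE and STMCC together gave 41 of the 201 members (20.4%) from 178 of the 10312 probes (1.73%), and without them the share was 160 of 10134 (1.58%). Neither prefix held a probe below 0 on all 8 arrays, while 190 of all probes (1.84%) were. Many other prefixes held none either, such as STMHV with 8 members and STMCS and STMDC with 0. The lack of such probes therefore does not set STMCE and STMCC apart.

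The members weigh in the median of their prefix. The prefix medians given here are over probes with 8 values, in the array order above. For the 92 such STMCE probes the median was 0.19, 0.24, 0.06 and 0.44 on the Typica-555 arrays. On the Mokka-555 arrays it was 0.14, 0.13, 0.21 and 0.25. STMCE was the only one of the 159 prefixes with a median above 0 on every array, and it ranked 1 of 159 on 2 arrays and 31 at the lowest. The STMCC median was 0.36 and 0.41 on the MA × KB arrays, where it ranked 4 and 1, and -0.08 to 0.21 on the other 6. The 65 STMCE probes with 8 values that were no members had a median above 0 on 4 arrays and below 0 on 4, from -0.09 to 0.23. For the 72 such STMCC probes the median was 0.29 and 0.34 on the MA × KB arrays and -0.14 to 0.19 on the other 6. Over all 10111 probes that were no members it was -0.03 to 0.03. Leaving out probes chosen for being above 0 tends to lower a median, so these values cannot show whether the rest of a prefix is shifted. Of the 92 STMCE probes 33 (35.9%) were above 0 on 7 or 8 arrays, beside 7.29% of all probes, and 11 (12.0%) were above 0 on at most 2, beside 18.9%. The 4 STMCE probes with missing values were above 0 in 10 of 24 values (41.7%), beside 49.8% for all such probes.

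The 27 STMCE members had a cultivar log2 ratio of 0.27 to 0.93 with a median of 0.64, and 0 of them reached 2-fold. The 14 STMCC members ranged from 0.13 to 1.10 with a median of 0.81, and 4 reached 2-fold (28.6%). The remaining 160 members had a median of 0.44. In the MA × KB pair the STMCE members' median was 0.77 and the STMCC members' 0.81, beside 0.25 for the other 160. MA × KA minus MA × KB accordingly had a median of -0.37 for STMCE, -0.29 for STMCC and 0.08 for the others. MB × KB was above MA × KA in 27 of 27 STMCE members, 12 of 14 STMCC members and 104 of the other 160 (65.0%). The STMCE members thus all lay on one side in this comparison, a pattern noticed after the values were seen.

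Neighbouring numbers also went together. Of the 153 members whose next number was measured on every array, 29 (19.0%) were followed by another member, beside a member share of 1.95% over all probes. Of the 29, 21 lay in STMCE or STMCC, where 29.3% and 16.3% of the probes were members, so these largely restate the prefix counts. Outside these prefixes it was 8 of 114 (7.02%), beside a member share of 1.58% there. By runs of 6 numbers, those from 73 to 78 held 28 members among 658 probes (4.26%), from 17 prefixes, while the run before, from 67 to 72, held 4 of 616 (0.649%). The other 14 runs held 1.19% to 2.64%. Apart from neighbouring numbers, the 13 members at 2-fold form 78 pairs. In the closest pairs, STMCC53 and STMCC77 differed by no more than 0.164 on any array and STMCC64 and STMCC88 by no more than 0.207. STMCC64 and STMIT78, which have different prefixes, differed by no more than 0.305. Within 0.5 on every array were 9 of the 78 pairs, and 2 of the 9 shared a prefix, beside 8 of all 78. Other pairs of STMCC lay further apart, such as STMCC77 and STMCC88 (0.903). Whether probes with close values carry sequence of the same or related transcripts was not tested, since no sequence of the probes was used here.

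The median of each prefix and of each number was therefore removed from every array, as an alternative. Then 177 probes were above 0 on all 8 arrays, and 83 of them were members, which is 41.3% of the 201 and 46.9% of the 177. A further 71 members were above 0 on 7 arrays. Of the STMCE members 16 stayed above 0 on all 8, of the STMCC members 7, and of the 8 STMHV members 0. Of the 13 members at 2-fold 8 stayed above 0 on all 8, and of the 10 members most clear of 0 it was 9, with STMJA05 above 0 on 7. No source used here says how identifiers map to spots on the slide, and the part of spot position in these counts was not tested.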

How the data were processed

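The authors deposited a table of log2 ratios, 1 value per probe and array. No source used here gives the background correction or normalization behind it. The deposited column medians lay between -0.07 and 0.02, and 12997 to 14499 probes had a value per array. The scale is log2, read from the rounding of the values. No intensities or detection calls were used, so the number of arrays limits the precision and the signal level of a probe is unknown.

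Each column was centred on its median, and members were taken as described above. The members and all lists were chosen with earlier results of these data known. Named probes were taken by a fixed ranking: the 10 members with the highest lowest value, the 3 highest further ratios, the extremes of the pool and dye differences (2 each way), the 3 members nearest 0 and the 3 nearest outside probes. STMCC53 and the prefixes were singled out after their values were seen.

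Both tests were run with limma 3.58.1 under R 4.3.3 and Benjamini-Hochberg adjustment over all probes tested. The main fit took the 3 pool-pair means with covariance for shared pools, and its SE was moderated with 2.12 prior degrees of freedom. The dye test took differences within dye-swapped pairs. Python 3.11.15, pandas 2.3.3 and numpy 2.4.6 were used for the rest. Equal numbers in the titles pair the arrays, and the descriptions give the arrays of a pair the same pools. Numbers 2 and 4 are both MA × KA, so the pools cannot tell their pairs apart and that pairing rests on the titles alone. Deviations from the means of the dye arrangements correlated at 0.27 for number 1 and between -0.03 and 0.02 for the others. Alternatives covered centring, scaling, layout medians, missing values, thresholds, averaging and arrays left out.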

Additional observations from a re-analysis of the deposited data

Results flagged for a closer look

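The 4 arrays of each dye arrangement were checked for a single array far from the others in 23 named probes. Of 46 groups in all, 4 were found. The limit is set to flag about 1 in 20 groups of independent, unselected values. The probes were named by ranks of these same values, so the 4 cannot be set against that rate. STMHZ27 stood at 2.22 on the MB × KB Mokka-555 array, beside 0.76 to 0.94 on the other 3. STMCL27 stood at 0.79 on the MA × KB array of that arrangement, beside 0.10 to 0.21. STMJA05 was far from the others in both arrangements, and on the MA × KB array each time. On the Typica-555 arrays it stood at 0.55 there, beside 1.73 to 1.93, and on the Mokka-555 arrays at 1.55, beside 0.42 to 0.51.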

How the results depend on the processing

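The number of members (201) moved most with how much was asked of each probe: it was 27 with values above 0.26 required, 345 with the repeats averaged first, 994 with dye swaps averaged first, and 241 to 556 with an array or a dye-swapped pair left out. Fewer arrays make the rule easier to meet: the count was 556 without the MA × KB pair, 412 without MB × KB, 393 and 322 without either MA × KA pair, and 317 without the MA × KB Typica-555 array alone. It was 179 with the values as deposited (171 shared), 201 with mean centring (154 shared), 177 with layout medians removed and 160 without STMCE and STMCC, the last chosen after seeing the data. The median log2 ratio (0.47) was 0.37 with layout medians removed and 0.36 to 0.49 with a pair left out. The 13 members at 2-fold, beside 116 of all 10312 probes, became 5 with layout medians removed, beside 96. There were 22 from the Typica-555 arrays alone, beside 209, and 17 from the Mokka-555 arrays alone, beside 466. With arrays left out 10 to 21 members reached 2-fold, beside 21 to 165 of all probes. The 10 members came without the MB × KB pair, beside 21 of all probes. The 21 members came without the MB × KB Mokka-555 array, beside 128 of all probes, a setting chosen after seeing the data. The cultivar test called 0 probes under each of 10 alternatives (56 to 1255 at an unadjusted p under 0.05), also with the number as a replicate block (0 calls, smallest adjusted p 0.0849), and with the arrays as replicates (0.0503). The dye test called 3 probes with no replicate block. Of 240 alternative ratios of the 20 named members 240 stayed above 0. For scaling, averaging and arrays left out the rule fixed this, since it holds every centred value above 0. A sign could turn only with deposited values, quantile normalization or layout medians removed, so the count supports nothing further. The ratio does not use the MA × KB pair, so leaving that pair out changes nothing. The arrays limit all of this: 2 pools per cultivar, shared between pairs, and no signal over background.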

Other observations

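Probes with a single missing value were outside the rule. Of 2353 such probes 17 (0.722%) were above 0 on all 7 of their arrays, while 2.33% to 3.06% of the 10312 probes with 8 values were above 0 on 7 given arrays. Members with the number 76 came to 10 of 113 probes (8.85%), from within the run of numbers 73 to 78. Number 78 was close with 7 of 80 (8.75%), and so was 94, outside that run, with 7 of 86 (8.14%). STMDW76, the member nearest 0, stood at 0.53, 0.00, 0.22 and 1.96 on the Typica-555 arrays and at 0.48, 0.15, 0.14 and 0.60 on the Mokka-555 arrays, and its 1.96 was the highest value of any member on the MB × KB Typica-555 array.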
